A study of Mus musculus with 6 samples.

Results

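The mucin-type O-glycosylation genes Galnt1, Galnt2, Galnt3, Galnt6, Galnt7, Galnt10, Galnt11, C1galt1, St3gal1 and Gcnt1 were followed in a UTX CUT&Tag experiment on progenitor CD8 T cells. Their sites were taken as the rows of the authors' deposited comparison whose gene symbol is 1 of these 10. That gave 10 sites of 401 bp out of 6739, at 4 of the 10 genes, with 7 sites at Galnt2 and 1 each at Galnt6, C1galt1 and St3gal1. Galnt1, Galnt3, Galnt7, Galnt10, Galnt11 and Gcnt1 had no listed site. The table lists sites whose signal differed between the genotypes, so these sites were selected on their fold and FDR between WT and UTX-deficient cells, and those values are given here as a description with no test.

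CUT&Tag marks the places in chromatin where an antibody sits, here one against UTX, the product of Kdm6a, an enzyme that removes methyl groups from lysine 27 of histone H3. The cells were Ly108+ CXCR6- CD8 T cells sorted from the pancreatic lymph nodes of NOD mice. All animals carried the NY8.3 T cell receptor transgene, and the groups were 3 samples of NY8.3 mice (WT) and 3 of UTXTCD.NY8.3 mice, in which UTX was deleted in T cells. The comparison asks where the UTX signal depends on the presence of UTX. The sources used here do not give the driver of the deletion, the age of the mice or whether animals were pooled, so the spread between samples may be partly technical. Of 9 markers of progenitor CD8 T cells, 8 had a listed site, all but Cd3g, and none of the 17 markers of B, myeloid, natural killer and pancreatic or stromal cells had one. Cd4 and Izumo1r, of 3 CD4 T cell markers, and Cxcr6, whose protein the sort excluded, had listed sites too. Of all protein-coding genes, 22.1% had a site higher in WT. These marker counts are description, and the purity of the sorted cells was not tested by them. Reads per library were recovered from the deposited group values, and since these carry no replicate number the libraries are called deepest, second and shallowest within their group. In relative depth, where 1 is the average library, WT stood at 1.28, 0.916 and 0.792, and the UTX-deficient group at 1.93, 1.07 and 0.00577. The shallowest UTX-deficient library was nearly empty, and 3 of its reads are worth 519.6 normalized reads, so its 0 reads at all 10 sites say nothing about the level there. Even at the WT mean of the strongest Galnt2 site it would have held 0.773 reads.

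Mucin-type O-glycosylation begins in the Golgi, where polypeptide N-acetylgalactosaminyltransferases (GalNAc transferases, the Galnt genes) attach N-acetylgalactosamine to serine or threonine. C1galt1 adds galactose to make the core 1 structure, Gcnt1 branches core 1 into core 2, and St3gal1 caps core 1 with sialic acid and so competes with branching. On CD8 T cells these sugars sit on abundant surface proteins such as CD43, CD45 and the CD8 coreceptor, and the balance of sialylated core 1 and core 2 is known to change with activation.

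The listed UTX sites of Galnt2, a broadly expressed initiating transferase, lay across the body of the gene, and none was within 1 kb of its ends. The gene spans chr8:124231394-124345722 in GRCm38.p6, the assembly of the authors' mm10 build. Its 7 sites covered 77752 bp of that, all inside the gene, and the nearest to an end was 10962 bp away (the annotation used gives gene ends without exons or strand, so sites were not placed in exons or introns). Over the whole table, 76.2% of sites that could be placed overlapped their assigned gene, and 53.0% lay within 1 kb of its ends. Sites that were not called are not listed, so signal at the ends of Galnt2 was not assessed. Of 21896 protein-coding genes, 4.06% had 2 or more sites higher in WT, 0.215% had 5 or more and 0.032%, which is 7 genes, had 7 or more. Galnt2 was chosen for its number of sites, so its place in these shares was set by that choice. Summed over Galnt2, WT reads were 507, 429 and 329, against 26, 56 and 0 without UTX. Scaled by depth, the WT sum was 426.7 ± 37.2 normalized reads (SD, n = 3). The UTX-deficient sums were 13.4 in the deepest library and 52.2 in the second. Their mean was 32.8, or 21.9 ± 27.1 (SD, n = 3) with the nearly empty library counted as 0. The ratio of WT to UTX-deficient means was 19.5 with the nearly empty library and 13.0 without it.

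The strongest Galnt2 site was the sixth from the lower-coordinate end, at chr8:124317858-124318258, with WT reads of 165, 135 and 99, against 5, 18 and 0 without UTX. All WT libraries lay above all UTX-deficient ones, as at 99.7% of all sites with recovered reads. Of the UTX-deficient libraries only the second held more than a few reads. The means were 133.8 ± 11.9 normalized reads for WT (SD, n = 3) and 6.46 ± 9.04 for UTX-deficient cells (SD, n = 3), or 9.68 over the 2 deeper UTX-deficient libraries. Each UTX-deficient mean and SD of 3 given here counts the nearly empty library as 0. The mean therefore understates that of the deeper pair, and the SD is not a spread of 3 informative libraries. The authors' deposited table gives this site a log2 fold, UTX-deficient against WT, of -3.54 and an FDR of 1.56e-06. By limma on the recovered reads its log2 fold was -5.07, or -6.15 without the second UTX-deficient library and -4.07 without the nearly empty one. This site alone made up 31.4% of the WT signal of the gene and ranked first of the 7 in every WT library. Its neighbour, the seventh site at chr8:124319507-124319907, lay 1248 bp further on and had WT reads of 53, 42 and 27 against 2, 5 and 0. The pair stood 41783 bp away from the other 5 sites, which gathered in the lower-coordinate part of the gene.

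In that part the fourth site, chr8:124274434-124274834, was second in every WT library, with WT reads of 90, 79 and 65 against 4, 12 and 0. The fifth site, chr8:124275674-124276074, was 839 bp from it and had WT reads of 62, 55 and 42 against 4, 6 and 0. Galnt2 thus held 2 of its 6 gaps between neighbouring sites under 1500 bp, while 1.82% of the 6716 gaps of the whole table were that short. The gaps of the whole table also run between different genes, and Galnt2 was chosen for its number of sites. Short gaps therefore go with that choice, and nothing is read from the difference. The third site, chr8:124265816-124266216, had the smallest FDR of the gene in the authors' deposited table (9.95e-17, log2 fold -3.80), with WT reads of 79, 51 and 47 against 5, 6 and 0. At this site the WT libraries also varied little around their mean, at 58.9 ± 3.08 normalized reads (SD, n = 3).

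Of the 7 Galnt2 sites, the weakest by WT mean lay towards the lower-coordinate end of the gene. The second site, chr8:124260379-124260779, had WT reads of 35, 40 and 27 against 4, 6 and 0. The first, chr8:124242156-124242556, had 23, 27 and 22 against 2, 3 and 0, and was the lowest of the 7 in every WT library. From the first to the sixth site the WT mean differed 5.34-fold, from 25.1 ± 6.20 to 133.8 ± 11.9 normalized reads (SD, n = 3). The log2 folds of the 7 sites lay close together in the authors' deposited table, between -3.80 and -3.01, with a median of -3.54 against -3.50 for all 6739 sites. By limma on all recovered libraries they spread more, from -3.69 at the first site to -5.07 at the sixth. Without the nearly empty library they ran from -2.98 at the second site to -4.07 at the sixth. Measured in the 2 deeper UTX-deficient libraries, the signal left at these sites was 6.94 to 10.9% of WT, with a median of 7.24% against 5.75% over all sites with recovered reads.

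**Figure D1:**
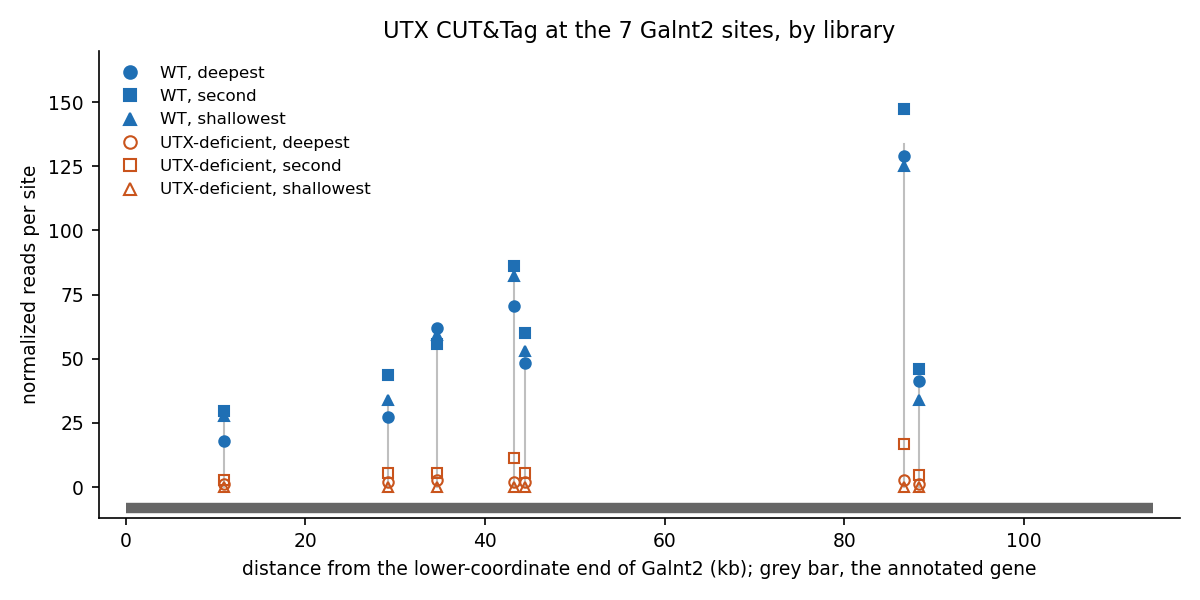
Normalized reads per library (y axis) at the 7 Galnt2 sites, placed by the distance of their middle from the lower-coordinate end of the gene in kb (x axis); filled blue symbols are WT libraries, open orange symbols UTX-deficient libraries, grey stems reach the WT mean and the grey bar is the gene. The sixth site stands highest at a WT mean of 133.8. Every WT library lies above every UTX-deficient library at each site, as at 99.7% of all sites with recovered reads.

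Galnt2 was compared with the other genes that hold 5 or more sites, 54 in all. By the distance between their median WT concentration (log2 mean normalized reads) and median log2 fold, the 3 nearest were Ccr7, a lymph node homing receptor, and the noncoding genes Mirt1 and Chaserr, at distances of 0.05, 0.06 and 0.10 log2 units over these 2 group values. Their sites are placed differently from those of Galnt2: 1 of the 6 Ccr7 sites, 3 of the 5 Mirt1 sites and none of the 5 Chaserr sites overlapped the gene they were assigned to. Of the 5 genes with exactly 7 sites, Galnt2 and Ago2 had all 7 inside the gene, and Ago2 had 1 of them within 1 kb of a gene end. Galnt2 shared with 20 others of the 54 that no site lay within 1 kb of a gene end. Summed over its sites, WT signal at Galnt2 was 426.7 normalized reads, and 11 of 5237 gene symbols had more. Such a sum grows with the number of sites, for which Galnt2 was chosen.

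Galnt6, an initiating transferase closely related to Galnt3, had 1 site inside the gene (chr15:100689915-100729376), at chr15:100706335-100706735. WT reads were 137, 96 and 60, against 2, 8 and 0 without UTX, that is 95.9 ± 17.5 against 2.83 ± 4.04 normalized reads (SD, n = 3), the latter 4.25 over the 2 deeper libraries. The groups did not overlap, as at 99.7% of all sites with recovered reads. Its log2 fold was -4.41 with an FDR of 7.96e-15, the lowest fold of the 10 sites in the authors' deposited table, at percentile 87.4 of all listed sites. The site lay 16620 bp from the nearer end of the gene and 13942 bp downstream of the nearer of the gene's annotated starts, and an end of another annotated gene was closer, at 6965 bp. A further listed site, 3308 bp beyond the upper-coordinate end of Galnt6, was assigned by the authors to I730030J21Rik. Its WT reads were 61, 50 and 43, against 1, 8 and 0, and the authors' deposited table puts its log2 fold at -3.67.

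C1galt1, the core 1 galactosyltransferase, had its site just outside the gene (chr6:7845224-7872042), at chr6:7844436-7844836, with its middle 588 bp upstream of the annotated start. WT reads were 57, 49 and 42, against 3, 4 and 0 without UTX, or 50.4 ± 5.01 against 1.76 ± 1.87 normalized reads (SD, n = 3). All 3 WT libraries lay above the UTX-deficient ones, as at 99.7% of all sites with recovered reads. For this site the authors' deposited table puts the log2 fold at -4.06 with an FDR of 6.42e-14. The 250 bases before the start, from RefSeq's GRCm38.p6, are shown because the site ends 137 bp short of the promoter window of this gene; those of the first start of Galnt6 are shown beside them as the other member with both a listed site and a promoter entry. Capitals mark the GC box letters GGGCGG on either strand.
C1galt1, chr6:7844974-7845223, plus strand: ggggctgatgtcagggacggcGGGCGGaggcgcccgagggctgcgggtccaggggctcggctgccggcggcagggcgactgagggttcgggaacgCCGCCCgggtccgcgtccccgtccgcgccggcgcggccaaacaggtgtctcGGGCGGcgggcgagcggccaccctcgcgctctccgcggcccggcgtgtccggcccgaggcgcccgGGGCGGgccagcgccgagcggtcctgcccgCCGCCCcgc
Galnt6, chr15:100729377-100729626, minus strand: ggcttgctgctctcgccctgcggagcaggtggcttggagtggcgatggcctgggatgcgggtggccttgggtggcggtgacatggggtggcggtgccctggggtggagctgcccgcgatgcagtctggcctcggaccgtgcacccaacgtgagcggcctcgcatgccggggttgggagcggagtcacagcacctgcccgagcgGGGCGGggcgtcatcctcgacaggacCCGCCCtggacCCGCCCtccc
The C1galt1 stretch holds 5 GC boxes and 44 CG dinucleotides and that of Galnt6 holds 3 and 22. Over full promoter windows, from 250 bases before to 50 after a start, C1galt1 had 52 CG dinucleotides, a count that 99.5% of all 32851 windows did not exceed, and the median was 7. Among windows that a listed site overlaps, the median was 25. GGGCGG was in 35.7% of all windows, and in windows of C1galt1, Galnt3, Galnt6, Galnt7 and Galnt11 among the 7 members with an entry. The ETS letters CCGGAA were in 1 window of Galnt7 alone (14.9% of all windows), the RUNX letters TGTGGT in no member window (16.8% of all) and the CRE letters TGACGT in both windows of Galnt11 (7.51% of all). Motifs were counted on both strands, with overlaps allowed. Galnt1, Galnt2 and St3gal1 had no entry. None of the 11 member windows was overlapped by a listed site, while 12.8% of all windows were. Of the 7 members with windows, only C1galt1 and Galnt6 have a listed site at all. The St3gal1 site, which crosses a gene boundary, could not be counted for want of a window.

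St3gal1, the sialyltransferase that caps core 1, had the lowest WT mean of the 10 sites, close to that of the first Galnt2 site. The site, chr15:67176637-67177037, crosses the upper-coordinate boundary of the gene (chr15:67102875-67176946), and its middle lies 109 bp inside. WT reads were 33, 23 and 19, against 1, 4 and 0 without UTX. After scaling by depth the WT libraries were nearly equal, at 25.8, 25.1 and 24.0 normalized reads. In the authors' deposited table its log2 fold was -3.03, and its FDR of 0.000265 was the largest of the 10 and so the closest to the threshold of 0.05. Sites past that threshold are not in the table, so none just outside it can be given.

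Ordered by their WT mean, per site of equal length, the sixth Galnt2 site stood first and its 3 libraries did not overlap those of the next, Galnt6. Galnt6 overlapped the fourth Galnt2 site, at 79.6 ± 8.21 normalized reads (SD, n = 3), which in turn lay apart from the third. From there down to St3gal1, at 25.0 ± 0.920 (SD, n = 3), each neighbour in the order overlapped the next within its 3 WT libraries. In UTX-deficient cells the second library lay above the deepest at all 10 sites after scaling by depth, as it did at 84.0% of all sites higher in WT with recovered reads.

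**Figure D2:**
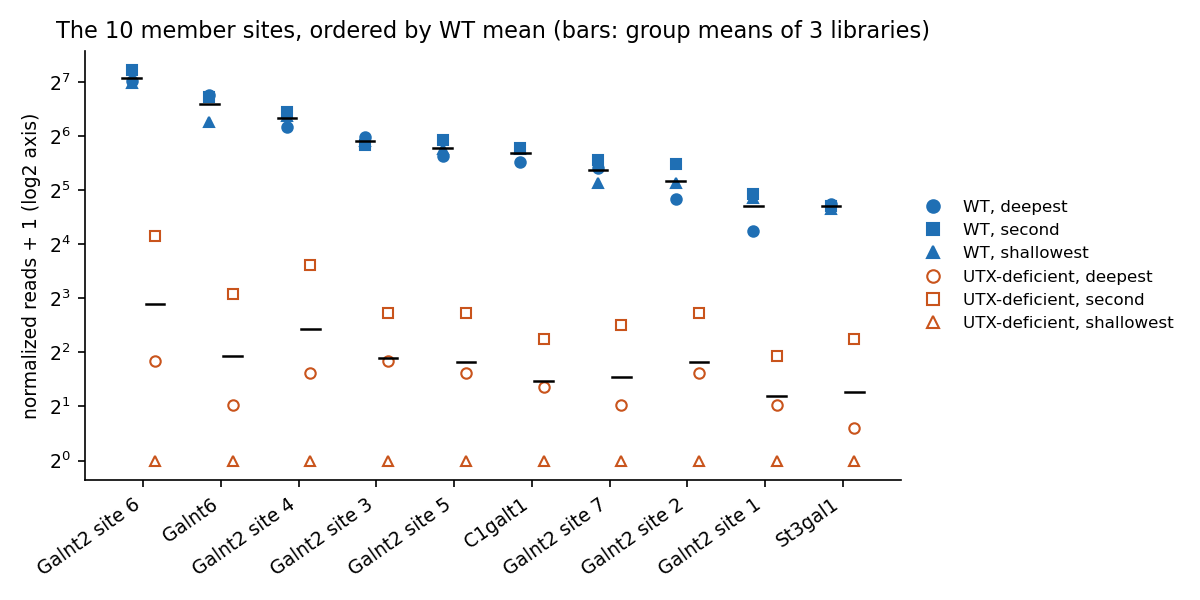
Normalized reads plus 1 per library on a log2 axis for the 10 sites, ordered by WT mean, with black bars for the group means of 3 libraries. WT values run from the sixth Galnt2 site down to St3gal1, and in UTX-deficient cells the second library lies above the deepest at all 10 sites while the nearly empty one is at 0 reads.

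All 10 sites were higher in WT, where 81% of the 8293 sites behind the authors' FDR values, a number worked out from those values, were called in that direction. Row numbers run to 10831, and 62.2% of them are listed. Nothing is read from that count, because the rule takes sites from the called ones. Each WT library exceeded each UTX-deficient library at all 10 sites, and at 99.7% of all sites with recovered reads. Comparing 3 samples with 3 allows no exact two-sided permutation p under 0.1. The median log2 fold of the 10 sites was -3.62 in the authors' deposited table, against -3.50 over all 6739. Median WT concentration was 5.70 at the 10 sites and 4.94 over the table, both as log2 mean normalized reads.

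**Figure D3:**
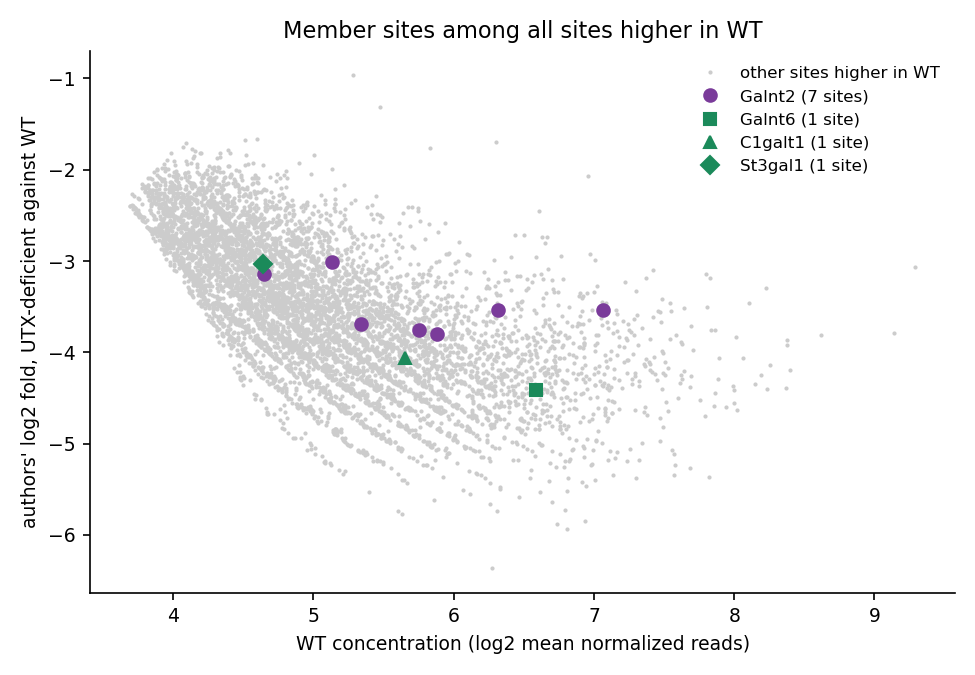
The authors' log2 fold (y axis, negative where WT is higher) against WT concentration in log2 mean normalized reads (x axis) for the sites higher in WT, in grey, with the 7 Galnt2 sites as purple circles and Galnt6, C1galt1 and St3gal1 as green symbols. In this deposited fold the Galnt2 sites keep within -3.80 and -3.01, while their WT concentration ranges from 4.65 to 7.06.

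By gene, 4 of the 10 had a site higher in WT (40.0%), where the share was 22.1% of all protein-coding genes and 30.4% of the 6636 whose length lies between those of the shortest and the longest of the 10. The exact 95% interval of 4 of 10, 12.2 to 73.8%, holds both shares. A site no more than 1 kb from a gene end was found at 2 of the 10, C1galt1 and St3gal1 (20.0%), against 15.3% of all protein-coding genes. By length, Galnt7 (129231 bp) and Galnt10 (142073 bp), which had no site, exceed Galnt2 (114329 bp).

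None of the 6 genes without a site had one of another gene's inside it either. Gcnt1 (chr19:17326141-17372844), the core 2 branching enzyme, lay 544870 bp from the nearest listed site, which is assigned to Vps13a, and Galnt3 (chr2:66082766-66125056), a transferase that acts on the phosphate hormone FGF23, lay 893073 bp from one at Cobll1. Galnt1 (chr18:24205321-24286816), a broadly expressed initiating transferase, and Galnt11 (chr5:25222872-25265918) were 83244 and 233199 bp from one, at Ino80c and Kmt2c. Galnt7 (chr8:57523825-57653055) and Galnt10 (chr11:57645442-57787514), transferases that favour peptides already carrying a sugar, were closer, 11866 bp from a site assigned to Hmgb2 and 13805 bp from one assigned to Sap30l. WT reads at the Hmgb2 site were 62, 59 and 39, against 3, 10 and 0 without UTX. Row numbers of the deposited table follow position and skip numbers, which leaves room for sites that were not listed: between the listed sites on either side, 4 numbers are skipped at Galnt3 and at Galnt7, 3 at Gcnt1, 2 at Galnt11 and 1 each at Galnt1 and Galnt10. At Galnt2, 1 number is skipped, in the 41783 bp between the fifth and the sixth site, and 1 more between the seventh and the next gene's site. What the skipped rows held was not analysed here.

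The rest of the pathway was described from 4 lists of 51 genes, of which 41 are other than the 10. The lists were chosen with earlier results of these data known, so their shares and intervals are description and no test. Of these 41, 14 had a site higher in WT (34.1%), with 23 sites in all whose median log2 fold was -3.01 in the authors' deposited table, and none had a site higher in UTX-deficient cells. Nothing is read from that absence, since 6718 of the 6739 listed sites were higher in WT. Among the 19 GalNAc transferase genes, 4 had a site (21.1%, against 22.1% of all protein-coding genes): beside Galnt2 and Galnt6 these were Galnt4, with 2 sites, and Galnt12, with 1. Unlike those of Galnt2, the Galnt12 site and the better called Galnt4 site lay at a gene end, 128 and 36 bp from it. WT reads at that Galnt4 site were 21, 20 and 15, against 2, 1 and 0. Of the 6 core synthesis genes, 3 had a site (50.0%, exact 95% interval 11.8 to 88.2%), namely C1galt1, Gcnt4 and C1galt1c1. The chaperone that C1galt1 needs, C1galt1c1, had a site 66 bp from its own end, with WT reads of 31, 30 and 25 against 3, 3 and 0.

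Of the 11 sialyltransferase genes on the O-glycan list, 7 had a site (63.6%, exact 95% interval 30.8 to 89.1%, against 22.1% of all protein-coding genes). Of these 7, 5 had one within 1 kb of a gene end, as had 3345 of the 4836 protein-coding genes with a site. These 5 were St3gal1, St3gal2, St3gal3, St3gal4 and St6galnac4, with log2 folds at their best called sites between -3.29 and -2.75 in the authors' deposited table. St6galnac5 had 2 sites, the nearer one 52262 bp from a gene end, and the authors' deposited table puts the log2 fold at -3.82 for the better called one. Of the elongation, fucosylation and sulfation genes, 4 of 15 had a site (26.7%, beside the same 22.1%). B3gnt2, which extends chains with N-acetylglucosamine, had 5 sites whose log2 folds ran between -5.18 and -2.28 in the authors' deposited table, and the best called of them lay 141571 bp from the gene. B4galt1 and B4galt5, galactosyltransferases of chain extension, had 2 sites each, with log2 folds of -5.40 and -5.08 at the better called ones in the authors' deposited table. UTX-deficient reads there were 0, 1 and 0 at B4galt1 and 0, 2 and 0 at B4galt5. At both, and at the B3gnt2 site of -5.18, the UTX-deficient concentration was 0, the lowest value, so these folds rest on very few reads. It was 0 too at the best called sites of Galnt4, Galnt12, St3gal3 and St3gal4, as at 37.6% of all listed sites. The fucosyltransferase genes Fut4 and Fut7, of selectin ligand synthesis, had none.

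**Figure D4:**
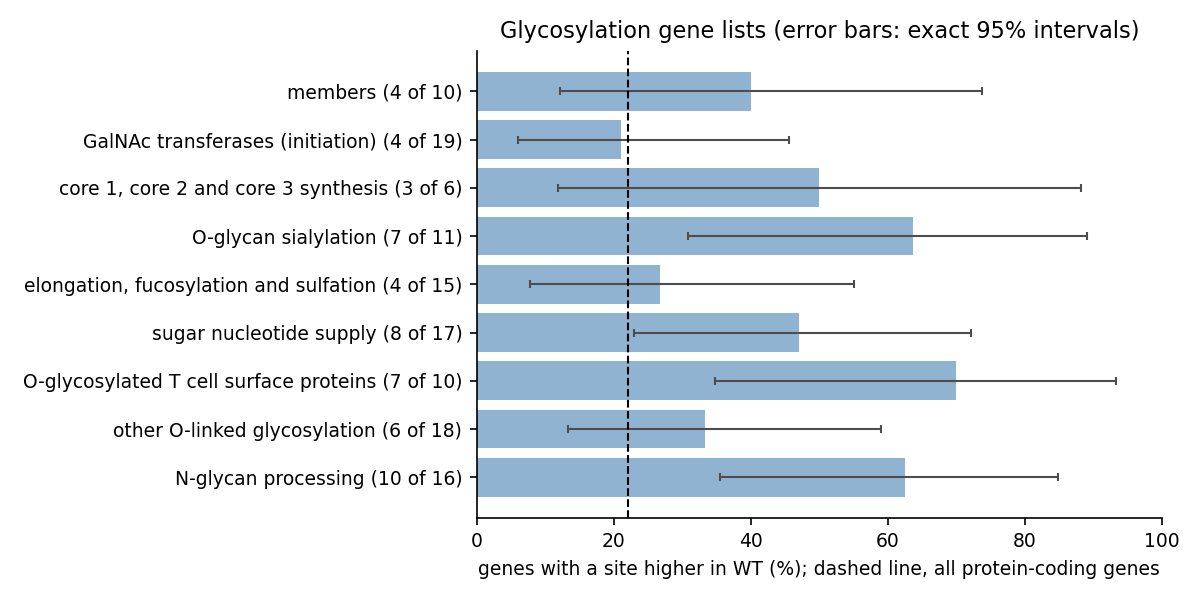
Share of the genes in each list with a site higher in WT (bars, %), with exact 95% intervals and a dashed line at the 22.1% of all protein-coding genes. Shares run from 21.1% of the GalNAc transferases to 70.0% of the O-glycosylated T cell surface proteins. The lists were chosen with earlier results of these data known, so the intervals test nothing.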

How the data were processed

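UTX CUT&Tag of 6 samples, 3 per genotype as labelled, was used through the authors' deposited comparison table. Per the submitters' processing notes, the tools included cutadapt, Bowtie2, Picard, MACS2 and DiffBind, with build mm10. Their versions and roles are not given in the sources consulted. Concentrations, per the file headers, are log2 mean normalized reads of a group as deposited, with 0 as the lowest value, the fold is a deposited log2 value (UTX-deficient against WT), and the p-value and FDR are the authors'. No column holds a single sample.

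Single libraries' reads were worked back from the concentrations: a group's antilog times 3 is a sum of whole reads, each times what 1 read of its library is worth. Both groups had exactly 1 solution at 6734 of 6739 sites. After a random shift, 2.12% of WT sums and 0.104% of UTX-deficient sums were solved. The depths summed to 6.0, as library sizes divided by their mean do. Recovery and limma were tested on simulated data. limma 3.58.1 in R 4.3.3 was fitted to log2(normalized reads + 1) over the whole table with Benjamini-Hochberg adjustment, as an alternative to the authors' test. Normalized reads are reads divided by relative depth, and intervals treat genes as independent.

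All 10 genes and all their sites are named. List genes were to be named with 2 or more sites or a site within 1 kb, and 3 genes nearest to Galnt2. The members and lists were chosen with earlier results of these data known. Genes and promoter windows come from RefSeq's GRCm38.p6; distances run from the middle of a site. Site sequences were not used here. Alternatives were FDR, distance, gene assignment, pseudocount and left-out libraries.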

Additional observations from a re-analysis of the deposited data

How the results depend on the processing

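No paired analysis was possible because the table holds group values without replicate numbers, and the recovered libraries carry none. At an FDR under 0.01 or 0.001, and within 10 kb of or inside the gene, the counts of 10 sites, 4 genes and 7 Galnt2 sites were unchanged. limma on the recovered reads, added for these counts after the data were seen, gave the same counts but calls 99.7% of all listed sites, so this says nothing about stability. Where the nearest gene end had to be that of the assigned gene, 9 sites and 3 genes remained counted, without Galnt6. Within 1 kb of a gene end, 2 sites at 2 genes remained, and 0 at Galnt2. Over the whole table, 6718 sites were higher in WT, 5836 at an FDR under 0.01, and 6710 to 6715 by limma with all or with 5 libraries.

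The median log2 fold of the 10 sites moved from -3.62 to -4.39 as a difference of group concentrations and to -4.35 by limma with all libraries, -4.79 with a pseudocount of 0.5 and -3.85 with 2. For Galnt2 it moved from -3.54 to -4.37, -4.33, -4.77 and -3.82. Leaving out 1 library gave -4.97 to -3.61 for the 10 sites and -4.96 to -3.60 for Galnt2. Without the nearly empty UTX-deficient library the values were -3.61 and -3.60, and without the second UTX-deficient library they were -4.97 and -4.96, the fit then resting on the deepest and the nearly empty one. The cause was not tested. At single sites all 100 values under an alternative kept their direction, from -6.15, at the sixth Galnt2 site without the second UTX-deficient library, to -2.98. At the fourth Galnt2 site the same omission gave -5.52 against -3.54. The UTX-deficient level rests on 1 to 18 reads per site in each of 2 libraries. Without molecular identifiers, reads may stem from the same molecule.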

Other observations

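Some genes that feed the pathway with activated sugars had sites. Of 17 sugar nucleotide genes, 8 had a site higher in WT (47.1%, exact 95% interval 23.0 to 72.2%, against 22.1% of all protein-coding genes). The same 8 of 17 had one within 1 kb of a gene end, beside 15.3% of all protein-coding genes. Of the 4836 protein-coding genes with such a site anywhere, 3345 had one within 1 kb. At Uap1, which makes UDP-N-acetylglucosamine, WT reads were 124, 73 and 69, against 2, 7 and 0 without UTX, 152 bp from the gene's end, and the authors' deposited table puts the log2 fold at -4.56. None of the 5 Slc35a Golgi transporter genes on the list had a site.

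Surface proteins that carry these glycans had a site at 7 of 10 genes (70.0%, exact 95% interval 34.8 to 93.3%, against the same 22.1%). Selplg, which encodes the selectin ligand PSGL-1, had 3 sites whose log2 folds ran between -4.12 and -3.53 in the authors' deposited table, and Cd8b1, Cd8a, Cd6 and Ptprc had 2 each. Cd44, Cd96 and Cd34 had none. This list, like those of the sugar nucleotide and other glycosylation genes, was chosen with earlier results of these data known. The shares and intervals of these lists are therefore description and no test.

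Other kinds of glycosylation gave 6 of 18 genes for other O-linked sugars (33.3%) and 10 of 16 for N-glycan processing (62.5%, exact 95% interval 35.4 to 84.8%), again beside 22.1% of all protein-coding genes. Oga, which removes O-linked N-acetylglucosamine, had 2 sites, and its partner transferase Ogt had none. Of the 14 sites at N-glycan processing genes, 1 was higher in UTX-deficient cells, at Man1a. The authors put it at 4.83 in log2, with a WT concentration of 0. Over all sites of that direction the nearly empty library held 174 reads, against 96 and 104 in the deepest and second. It held 0 reads over the sites higher in WT. How far the Man1a value rests on that library was not tested. Mgat1, which starts complex N-glycans, had WT reads of 266, 211 and 180 against 9, 13 and 0, at 3 bp from its end, more reads in each WT library than any of the 10 sites described above.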
